A study of Arabidopsis thaliana with 10 samples.

Results

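Glutaredoxins are small proteins that use glutathione to reduce disulfides and mixed glutathione disulfides on other proteins, and some of them hold iron-sulfur clusters. Plants have 3 main classes, named for the residues at the active site. The CPYC class, found in most organisms, covers general thiol reductases, the CGFS class serves iron-sulfur cluster handling, and the CC-type class occurs in land plants, where its members bind TGA transcription factors. In *Arabidopsis*, CC-type genes are known from flower development, salicylate and jasmonate crosstalk and, for a tandem cluster on chromosome 4, from the response to nitrate. The 5 genes followed here were given by name: GRXC1 (AT5G63030) of the CPYC class, and AT4G15660, AT4G15690, AT5G18600 and AT3G62950 of the CC-type class. GRXC1 can bind an iron-sulfur cluster in *Arabidopsis*. AT4G15660 and AT4G15690 belong to the chromosome 4 cluster, and AT3G62950 lies beside AT3G62960 on chromosome 3. Each of the 5 is read by 1 probe set of the 22746 on the Affymetrix ATH1 array that are not controls, and all were bright enough to be among the 12453 compared. GRXC1, AT4G15660 and AT3G62950 also stand in the study's own list of redox genes higher in *oxt6*, which was drawn from these arrays, so their rise is not independent evidence of that direction.

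RNA came from leaves of soil-grown plants of the Columbia background, harvested at 30 days under 8 h of light and 16 h of dark, with leaves of 10 to 15 plants pooled in each sample. There were 3 wild-type arrays and 3 of *oxt6*, a mutant with a T-DNA insertion in the first exon of At1g30460, which encodes the polyadenylation factor subunit AtCPSF30 and a larger related protein and is left with neither. The complemented plants were *oxt6* plants carrying a genomic copy that makes only the smaller protein from its own promoter, so they still lacked the larger one, and 2 arrays came from each of the independent lines 5 and 6. The samples were chosen from a larger set for the quality of their RNA, and p-values measure the spread between pooled samples.

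Precision is limited by how few arrays there are, and the arrays differed in ways that touch these genes. The values are PLIER intensities with a floor at 16. *oxt6* replicate 1 stood apart within its group, with 2920 probe sets at the floor against 11 and 867 on the other two. On the wild-type arrays the 3' control probe sets were brighter than the 5' ones by 2.18 ± 0.18 (log2, SD, n = 3). In *oxt6* the excess was 2.24 ± 1.0 (log2, SD, n = 3), with replicate 1 at 1.09, but on the complemented arrays it was 0.039 ± 0.069 (log2, SD, n = 4). This signal set the complemented plants apart from *oxt6* and from the wild-type, each with p = 0.0286 in an exact permutation test (two-sided), the lowest p possible for 3 arrays against 4. Of the marker lists, only RCA for leaf (1 of 4) and PYK10 for root (1 of 3) could be named, and none for flower or seed. RCA, the activase of Rubisco, read 1139.6 to 1569 in the wild-type, 630.9 to 3350.6 in *oxt6* with the highest value in replicate 1, and 6042.7 to 8232.2 in the complemented plants. PYK10, a root glucosidase, read 77.1 to 129.2, 179 to 204.9 and 253.4 to 330.8. The probe set of AtCPSF30, which recognises only the larger mRNA, read 38.7 to 71.2 in the wild-type, 27.1 to 54.7 in *oxt6* and 16 to 18.7 in the complemented plants, so it did not set *oxt6* apart and gave no check of the labels. In RNA from whole leaves, fewer cells of a type and less RNA per cell cannot be told apart.

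The 5 genes showed 2 patterns across the arrays, and CC-type genes were found in both. GRXC1 read 353.2, 309.5 and 221.4 in the wild-type, 632.6, 781.3 and 717.6 in *oxt6*, 227.6 and 239.5 in line 5 and 262.1 and 234.2 in line 6. Every *oxt6* array lay above all others, while the complemented arrays fell within the wild-type range. AT4G15660 read 73.6, 61.6 and 79.7 in the wild-type, 180.2, 271.6 and 276.2 in *oxt6*, 60.5 and 61.3 in line 5 and 58 and 52.5 in line 6. It was again high only on the *oxt6* arrays, with both complemented lines just below the lowest wild-type array. AT3G62950 read 101.3, 93.1 and 62.9 in the wild-type, 205.6, 329.1 and 310.8 in *oxt6*, 120.1 and 126 in line 5 and 106.8 and 99.1 in line 6. Here too the *oxt6* arrays stood clear of the rest, and wild-type and complemented arrays overlapped. Of all probe sets tested, 20.4% likewise had every *oxt6* array above every wild-type array, and 31.4% had every *oxt6* array above every complemented one.

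AT4G15690 and AT5G18600 followed the second pattern, in which the complemented plants stood apart. AT4G15690 read 155.5, 172.7 and 178.3 in the wild-type, 131.6, 330.2 and 267.9 in *oxt6*, 38.9 and 52.3 in line 5 and 23.3 and 16 in line 6, the last at the floor. The *oxt6* arrays straddled the wild-type ones, with replicate 1 below and the other two above. AT5G18600 read 1218.1, 1291.7 and 1276.5 in the wild-type, 982.2, 1294.1 and 1215.3 in *oxt6*, 293.1 and 351.5 in line 5 and 149.7 and 134.6 in line 6. Wild-type and *oxt6* arrays overlapped, and all complemented arrays lay far below both. For 35.5% of all probe sets tested every complemented array was below every wild-type array.

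**Figure D1:**
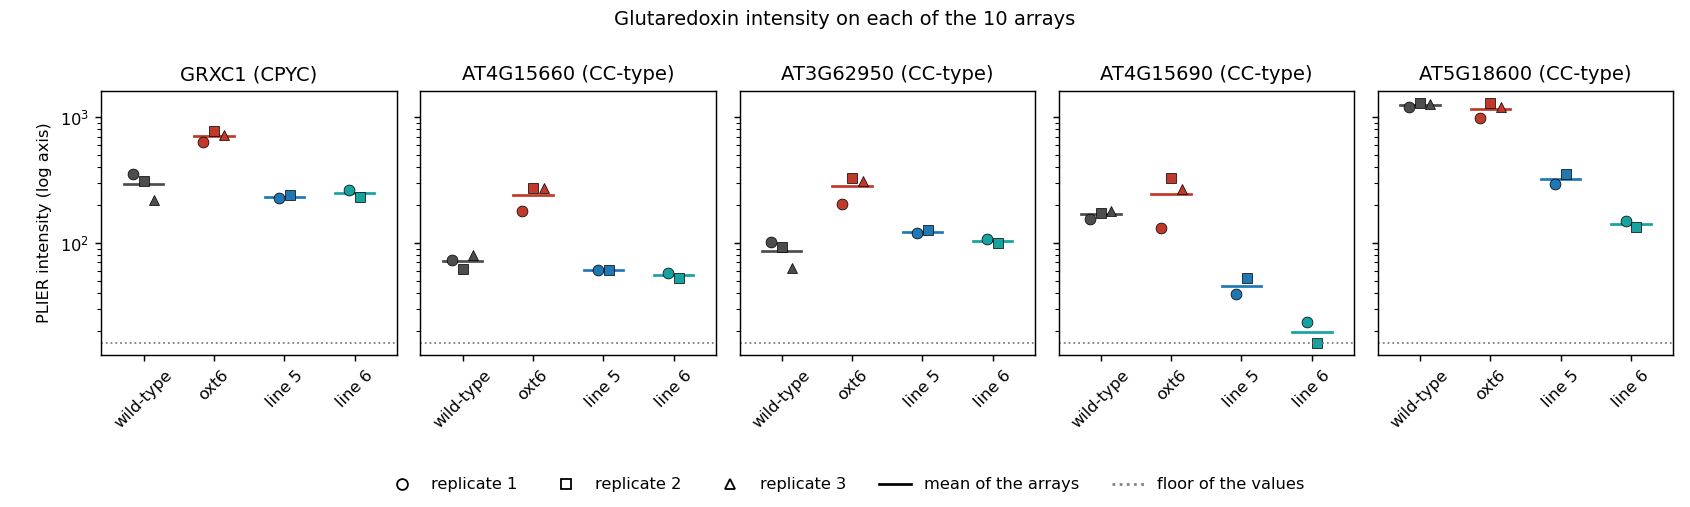
PLIER intensity (log axis) of each gene on the 10 arrays, by group, with a symbol for each replicate, a bar at the mean and a dotted line at the floor of 16. GRXC1, AT4G15660 and AT3G62950 are high only in *oxt6*, whereas AT4G15690 and AT5G18600 are low only in lines 5 and 6.

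Loss of both At1g30460 proteins was examined by comparing *oxt6* with the wild-type. In limma over all 12453 probe sets, 3 of the 5 genes were higher in *oxt6*, beside 16.4% of all probe sets, and none was lower, beside 12.3%. GRXC1 was 2.44-fold higher, a log2 change of 1.29 with a standard error of 0.19 (adjusted p = 2.74e-04). AT4G15660 rose by 1.73 (standard error 0.19, adjusted p = 2.88e-05) and AT3G62950 by 1.70 (standard error 0.22, adjusted p = 1.12e-04), or 3.31-fold and 3.26-fold. AT4G15690 gave 0.43 with a 95% confidence interval from -0.41 to 1.26 (adjusted p = 0.443). AT5G18600 gave -0.13 with an interval from -0.80 to 0.55 (adjusted p = 0.798), so that a rise of the size seen for the other 3 genes lay outside its interval. With array weights AT4G15690 was called too, at 0.73 (adjusted p = 0.0250), but 57% of all probe sets were then called in either direction, in place of 28.7%. The median over the 5 was 1.29, and that over all probe sets tested was -0.04.

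The return of the smaller protein was examined by comparing *oxt6* with the complemented plants. All 5 genes were higher in *oxt6*, beside 32.3% of all probe sets. The brightness filter took the mean over all arrays. AT4G15690 averaged 168.8 in the wild-type, 243.2 in *oxt6* and 32.6 in the complemented plants, so it passed through the groups where it was high. Its place in this count, and among the genes lower in the complemented plants than in the wild-type, follows in part from that filter. AT4G15690 and AT5G18600 gave the highest values, 2.89 (standard error 0.36, adjusted p = 1.30e-05) and 2.43 (standard error 0.29, adjusted p = 9.43e-06). AT4G15660, GRXC1 and AT3G62950 rose by 2.02 (adjusted p = 8.41e-07), 1.55 (adjusted p = 6.96e-06) and 1.29 (adjusted p = 1.06e-04), also in limma. The median over the 5 was 2.02, against -0.03 over all probe sets. The arrays compared differed in the 3'/5' control signal by 2.20 and in RCA by -2.60 (log2, adjusted p = 1.43e-04). With that signal as a covariate, 24.8% in place of 69.3% of all probe sets were called in either direction, AT4G15690 (1.33, adjusted p = 0.154) and AT3G62950 (0.59, adjusted p = 0.281) were no longer called, and GRXC1 (1.36), AT4G15660 (1.21) and AT5G18600 (1.87, adjusted p = 0.0495) still were. The part of RNA integrity in these differences cannot be told apart from that of the complemented genotype.

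The complemented plants were also set against the wild-type. They lack the larger protein, but they also carry the T-DNA insertion and an added genomic copy, and the parts of these cannot be told apart. None of the 5 genes was higher, beside 38% of all probe sets, and 2 were lower, beside 33.8%. AT5G18600 fell by 2.56 (standard error 0.29, adjusted p = 6.35e-06) and AT4G15690 by 2.47 (standard error 0.36, adjusted p = 4.42e-05), or 5.89-fold and 5.54-fold, the latter with 1 array at the floor. GRXC1 gave -0.27 (95% confidence interval -0.65 to 0.12), AT4G15660 -0.29 (-0.67 to 0.09) and AT3G62950 0.42 (-0.03 to 0.86), and none of these passed, although AT3G62950 came close (adjusted p = 0.0875). The 3'/5' signal differed here by -2.15, and with it as a covariate AT5G18600 remained called at -2.01 (adjusted p = 0.0288), AT4G15690 did not pass at -0.94 (adjusted p = 0.274) and AT3G62950 was higher by 1.095 (adjusted p = 0.0485). Over both comparisons of *oxt6*, which share the *oxt6* arrays, GRXC1, AT4G15660 and AT3G62950 were the 3 genes higher than in either other group, as were 9.36% of all probe sets.

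**Figure D2:**
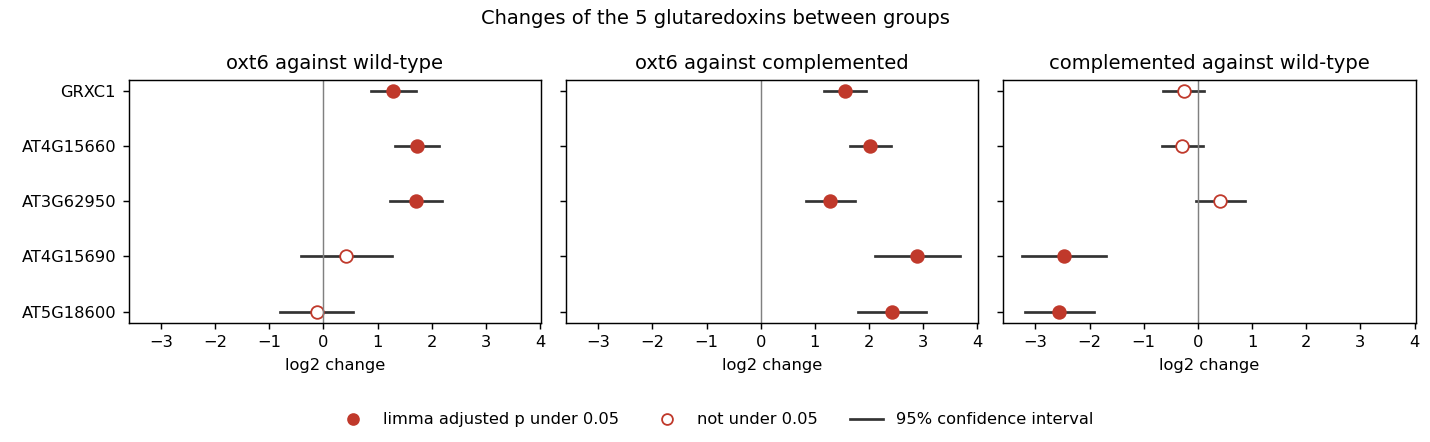
Change of each gene on the log2 scale in the 3 comparisons, from limma, with 95% confidence intervals; filled points have an adjusted p under 0.05. The points of AT4G15690 and AT5G18600 lie near 0 for *oxt6* against wild-type and at -2.47 and -2.56 for complemented against wild-type, whereas GRXC1, AT4G15660 and AT3G62950 lie between 1.29 and 1.73 in the first of these and between -0.29 and 0.42 in the other.

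The CC-type genes were compared with GRXC1 by change and not by level. The log2 value of GRXC1 on an array was subtracted from every probe set of that array before the fit. A coefficient is thus the change of a gene less the change of GRXC1. GRXC1 is 1 gene of its class, so these differences do not compare the classes as a whole. For *oxt6* against wild-type, AT4G15660 and AT3G62950 exceeded GRXC1 by 0.44 (95% confidence interval -0.08 to 0.96) and 0.42 (-0.03 to 0.86), which did not pass (adjusted p = 0.100 and 0.0742). These intervals leave room for a rise nearly 1 log2 unit above that of GRXC1. AT4G15690 and AT5G18600 changed by less than GRXC1, at -0.86 (adjusted p = 0.0464) for the former and -1.41 (adjusted p = 0.00143) for the latter. Of all probe sets 86.6% were lower than GRXC1 in this sense, so that these calls are the common case. The call for AT4G15690 ended without *oxt6* replicate 1 (-0.55, adjusted p = 0.209), without wild-type replicate 3 (-0.63, adjusted p = 0.208) and without wild-type replicate 2 (-0.89, adjusted p = 0.0717). That for AT4G15660 was gained without wild-type replicate 3 (0.71, adjusted p = 0.00217), the array on which GRXC1 was lowest, and that for AT3G62950 without *oxt6* replicate 1 (0.55, adjusted p = 0.0299).

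Against the complemented plants the order was turned. AT4G15690 and AT5G18600 exceeded GRXC1 by 1.34 (95% confidence interval 0.57 to 2.11, adjusted p = 0.00261) and 0.88 (0.19 to 1.57, adjusted p = 0.0193), where 86.9% of all probe sets differed from GRXC1 in either direction. Both calls ended with line 5 alone, at 0.71 (adjusted p = 0.0630) for AT4G15690 and 0.25 (adjusted p = 0.402) for AT5G18600, and with line 6 alone the values were 1.98 and 1.51. AT4G15660 and AT3G62950 gave 0.47 (-0.02 to 0.95) and -0.27 (-0.68 to 0.15) and did not pass. Between complemented and wild-type plants, where 64.8% of all probe sets differed from GRXC1, AT4G15690 and AT5G18600 lay below it by -2.20 (adjusted p = 7.56e-05) and -2.29 (adjusted p = 2.01e-05), AT3G62950 above it by 0.68 (adjusted p = 0.00660), and AT4G15660 gave -0.03 (-0.51 to 0.46). The call of AT3G62950 ended with line 6 alone (0.51, adjusted p = 0.109). AT4G15660 passed in none of the 3 comparisons in these fits, but against the complemented plants it passed with only the groups compared (0.47, adjusted p = 0.0106), without wild-type replicate 3 (0.47, adjusted p = 0.00735) and without *oxt6* replicate 1 (0.59, adjusted p = 0.0441). With the 3'/5' signal as a covariate none of the 4 differed from GRXC1 past the threshold in either comparison of the complemented plants.

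AT4G15660 and AT4G15690 sit in a run of 5 glutaredoxin genes next to each other on chromosome 4, from AT4G15660 to AT4G15700, yet they fell into different patterns. The change of AT4G15690 less that of AT4G15660, a comparison chosen after the values were seen, was -1.30 for *oxt6* against wild-type (95% confidence interval -1.99 to -0.61, limma adjusted p = 0.00147), where 95% of all probe sets differed from AT4G15660. It was 0.87 for *oxt6* against complemented (adjusted p = 0.0127) and -2.18 for complemented against wild-type (adjusted p = 3.36e-05), beside 93.3% and 68.9% of all probe sets. AT4G15700, at the other end of the run, read 65.1, 61.1 and 77.2 in the wild-type, 93.3, 227.7 and 220.9 in *oxt6* and 26 to 36.1 in the complemented plants. It stood between its neighbours, with a rise of 1.30 against the wild-type (adjusted p = 0.00436), a rise of 2.41 against the complemented plants (adjusted p = 5.37e-06) and a fall of 1.11 between complemented and wild-type plants (adjusted p = 0.00226). AT4G15680 was too dim to be compared, with means of 48.9 in the wild-type, 50.4 in *oxt6* and 26.9 in the complemented plants, and AT4G15670 had no probe set named here. Which of these similar copies each probe set reads was not tested.

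Spread among the *oxt6* arrays was described by the SD, with no test. GRXC1 had a log2 SD of 0.15 over the 3 *oxt6* arrays and AT5G18600 one of 0.21, both under the median of 0.27 for all probe sets tested. AT4G15660 and AT3G62950 had 0.35 and 0.37, above that median, and AT4G15690 had 0.69, at percentile 94.5. A spread of that size was not particular to AT4G15690. Of the other CC-type genes tested, AT4G15700 had 0.73, AT2G47880 0.69 and AT1G06830 0.91. AT4G33040, GRX480 and GRXS13 had less, at 0.48, 0.32 and 0.066. Over all 3 *oxt6* arrays GRXC1 had the smallest SD of the 5, an order that did not hold without replicate 1. Its narrow spread was not shared by its whole class. The other CPYC genes had 0.47 for AT2G20270, 0.36 for AT5G20500, 0.14 for GRXC2 and 0.089 for AT1G77370. The wild-type gave another order. There GRXC1 and AT3G62950 had the wider spread, 0.35 and 0.36 against a median of 0.19, and AT5G18600 the narrowest at 0.045. In the complemented plants AT4G15690 and AT5G18600 had 0.73 and 0.69, at percentiles 98.0 and 97.6. The other 3 genes had 0.088 to 0.16 against a median of 0.18. This SD pools lines 5 and 6, so it includes the difference between lines. That difference was 1.18 (log2) for AT4G15690 and 1.17 for AT5G18600.

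**Figure D3:**
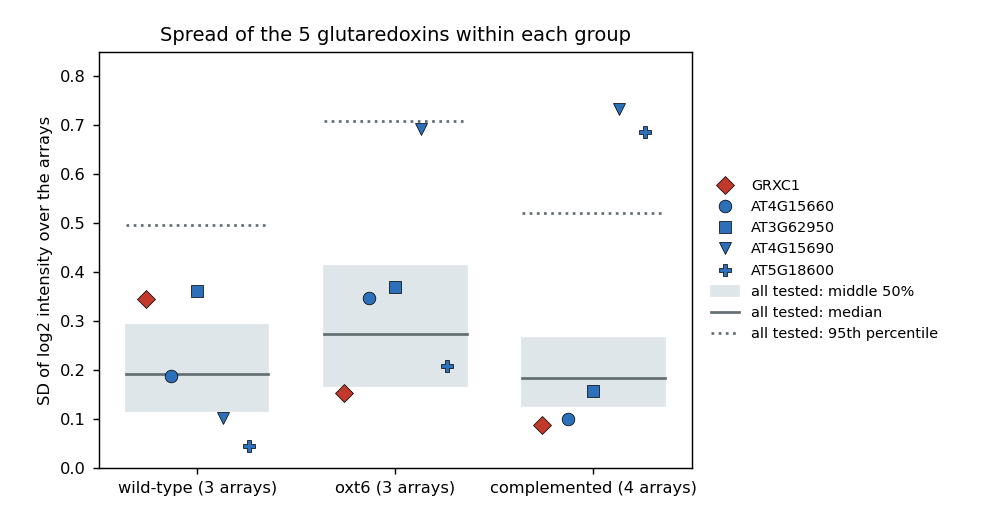
SD of log2 intensity over the arrays of each group for the 5 genes, with the middle 50% (shaded), the median (line) and the 95th percentile (dotted) of all 12453 probe sets tested. AT4G15690 reaches 0.69 in *oxt6* and GRXC1 stays at 0.15; AT4G15690 and AT5G18600 pass the 95th percentile only in the complemented plants.

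The spread in *oxt6* lay mostly between replicate 1 and the other arrays. For all 5 genes replicate 1 was the lowest *oxt6* array, as it was for 58.7% of all probe sets tested. Its log2 value was below the mean of replicates 2 and 3 by -0.24 for GRXC1, near the median of -0.22 over all probe sets. The difference was -0.35 for AT5G18600, -0.60 for AT4G15660, -0.63 for AT3G62950 and -1.17 for AT4G15690, the last at percentile 1.77. Replicate 1 was likewise far the lowest for AT4G15700 (93.3 against 227.7 and 220.9) and AT2G47880 (278.3 against 657.1 and 615.6). The same held for AT1G06830 (41.3 against 136.3 and 111.7), while GRXS13 differed little (323.3 against 352.8 and 346.1). The drop was not confined to CC-type genes. Of the CPYC genes it was seen in AT2G20270 (130.8 against 230.6 and 230.7) and AT5G20500 (1258.6 against 2038.1 and 1811.4). GRXC2 (2488.9 against 3025 and 2831.4) and AT1G77370 (2454.9 against 2777.7 and 2634) differed less. Replicates 2 and 3 differed from each other by 0.024 for AT4G15660, 0.082 for AT3G62950, 0.091 for AT5G18600, 0.12 for GRXC1 and 0.30 for AT4G15690, against a median of 0.19. Without replicate 1 the SD was 0.087 for GRXC1, 0.017 for AT4G15660, 0.058 for AT3G62950, 0.064 for AT5G18600 and 0.21 for AT4G15690, so that GRXC1 was then wider than all but AT4G15690. The members called against the wild-type and against the complemented plants were then still 3 and 5, and AT4G15690 gave 0.82 against the wild-type, without passing. Replicate 1 also had the lowest 3'/5' signal and the highest RCA of the 3 arrays, and the part of either in the spread was not tested.

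Lines 5 and 6 differed in AT5G18600, which was low in both. This comparison was chosen after the values were seen. AT5G18600 averaged 322.3 in line 5 and 142.2 in line 6, a log2 difference of 1.17 (standard error 0.18, limma adjusted p = 0.00274), and it was the 1 of 5 genes called higher in line 5, as were 3.2% of all probe sets. AT4G15690 averaged 45.6 and 19.7, a difference of 1.18 that did not pass (adjusted p = 0.101) and that includes an array at the floor. The other 3 genes differed by -0.09 for GRXC1, 0.14 for AT4G15660 and 0.26 for AT3G62950, and none of these passed. Each line taken alone was below the wild-type for AT5G18600 (-1.97 for line 5 and -3.14 for line 6) and for AT4G15690 (-1.88 and -3.06). In either direction, 61.9% of all probe sets were called there with line 5 alone and 68.3% with line 6 alone. All 5 genes were higher in *oxt6* than in each line alone, where 58.2% of all probe sets were called with line 5 and 66.2% with line 6.

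The other glutaredoxins were taken by class. Of the other CPYC genes, 4 of 5 were named on the array and all 4 were tested. All 4 rose in *oxt6* against the wild-type: AT2G20270 by 1.14, AT5G20500 by 0.92, GRXC2 by 0.64 and AT1G77370 by 0.60, with limma adjusted p from 0.00137 to 0.0208, beside 16.4% of all probe sets. Against the complemented plants 3 of the 4 were higher, beside 32.3% of all probe sets, AT1G77370 by 1.97, GRXC2 by 1.19 and AT5G20500 by 0.98, while AT2G20270 gave 0.15 (adjusted p = 0.511). Between complemented and wild-type plants AT2G20270 was higher by 0.99, and AT1G77370 and GRXC2 fell by 1.37 and 0.55. AT1G77370, at 1635.5 to 1916.3 in the wild-type, 2454.9 to 2777.7 in *oxt6* and 570.8 to 777.3 in the complemented plants, therefore joined a rise in *oxt6* with a fall in the complemented plants.

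Of the 17 other CC-type genes, 14 were named on the array and 6 were bright enough to be tested. The filter took the mean over all arrays, so AT1G06830 and AT4G15700 passed through the groups where they were high. AT1G06830 averaged 74 in the wild-type, 96.4 in *oxt6* and 21.3 in the complemented plants. AT4G15700 averaged 67.8, 180.6 and 31 in the same order. The counts out of these 6 therefore follow in part from that filter. Against the wild-type 2 rose and 2 fell, beside 16.4% and 12.3% of all probe sets, with a median of 0.32. AT2G47880 was higher by 1.25 (adjusted p = 0.00806) and AT4G15700 by 1.30. GRX480, a salicylate-induced partner of TGA factors, read 891.9, 841.6 and 763.1 in the wild-type, 57.4, 79 and 89.3 in *oxt6*, 49.4 and 65.3 in line 5 and 38.4 and 31.5 in line 6. It was high on the wild-type arrays only, lower in *oxt6* by a log2 of -3.47 (adjusted p = 2.21e-06) and in the complemented plants by -4.19 (adjusted p = 7.40e-08). GRXS13 was lower in *oxt6* by -0.95 and in the complemented plants by -2.41. Against the complemented plants all 6 were higher in *oxt6*, beside 32.3% of all probe sets, among them AT4G15700 (2.41), AT2G47880 (2.11) and AT1G06830 (2.003), with 2 complemented arrays of AT1G06830 at the floor. Between complemented and wild-type plants 5 of the 6 were lower, beside 33.8% of all probe sets, AT1G06830 by -1.74 among them, and none was higher, beside 38%. Of the 4 CGFS genes, 2 were tested. GRX4, which acts in mitochondria, rose in *oxt6* against the wild-type by 0.75 (adjusted p = 0.0102). GRXS17 was lower in *oxt6* than in the complemented plants by -0.71 (adjusted p = 0.0118).

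**Figure D4:**
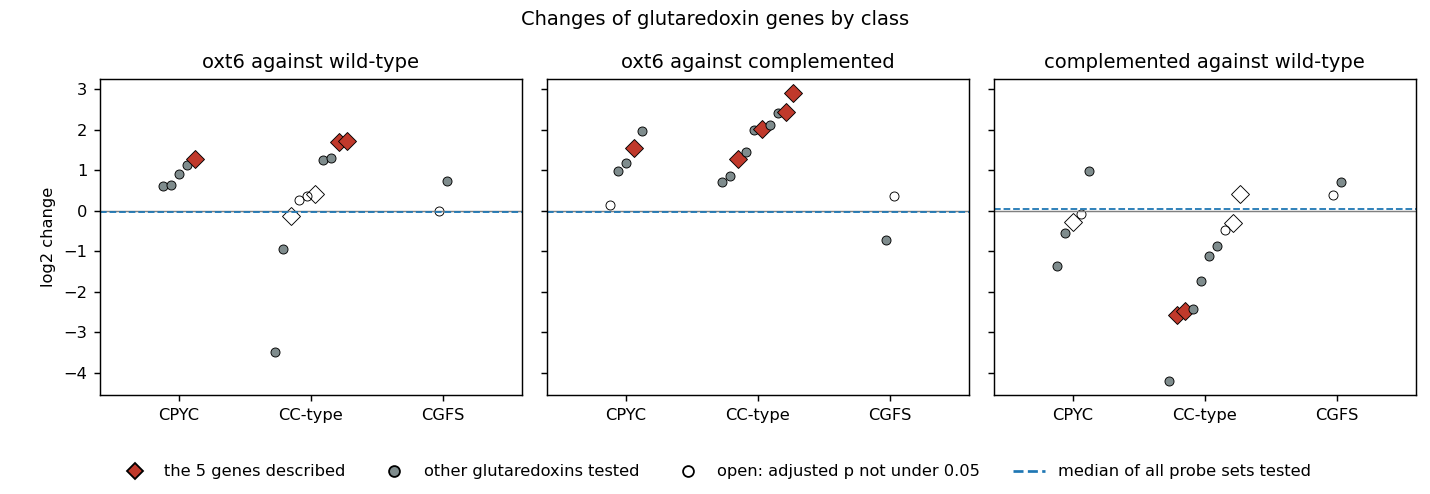
Log2 change of every glutaredoxin gene tested, by class, in the 3 comparisons; diamonds are the 5 genes described, circles the others, open symbols have a limma adjusted p not under 0.05, and the dashed line is the median of all probe sets tested. CPYC genes lie between 0.60 and 1.29 for *oxt6* against wild-type, and CC-type genes run from -3.47 to 1.73.

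Genes around glutaredoxin function were read from fixed lists. Of the genes of glutathione supply, 3 of 4 were tested and none passed against the wild-type, at an unadjusted p under 0.05 either. GSH2, glutathione synthetase, and GR, a glutathione reductase, were lower in *oxt6* than in the complemented plants by -0.83 (adjusted p = 2.35e-04) and -0.82 (adjusted p = 0.00333), where 37% of all probe sets were lower, and higher in the complemented plants than in the wild-type by 0.61 and 0.69. Type-A response regulators damp the cytokinin response, and 3 of 8 were tested. In *oxt6* over the wild-type, RR16 rose by 1.69 (adjusted p = 1.10e-04) and ARR9 by 1.37 (adjusted p = 8.92e-05), beside 16.4% of all probe sets. ARR15 gave 0.51 there and did not pass (limma adjusted p = 0.157). RR16 and ARR9 were also higher in *oxt6* than in the complemented plants, by 2.11 and 2.30. All 3 of the list passed there, beside 32.3% of all probe sets. ARR15 and ARR9 were lower in the complemented plants than in the wild-type by -1.02 and -0.93. No gene of the TGA factor or nitrate response lists could be named on the array.

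Over the 10 arrays, AT4G15690 and AT5G18600 ran together most closely among the 5 genes (Pearson r = 0.97), followed by GRXC1 and AT4G15660 (0.95) and GRXC1 and AT3G62950 (0.90). AT5G18600 and AT3G62950 were least alike (0.29). The arrays form 3 groups, so these values mostly repeat the group means and carry no test. Among 7238 named probe sets tested, the genes most like GRXC1 were AT4G13160, AT2G39920 and AT3G53470 (r = 0.99 each). Those most like AT4G15660 were AT4G10910, the D-type cyclin CYCD3;3 and AT5G54855 (r of 0.994 or more), and those most like AT3G62950 were AT2G04690, AT1G69980 and the actin depolymerizing factor ADF9 (0.99 each). For AT4G15690 they were AT5G50540, the ubiquitin-conjugating enzyme UBC11 and AT1G34640, and for AT5G18600 AT5G44170, the ubiquitin-conjugating enzyme of peroxisome biogenesis PEX4 and AT5G63905, with r of 0.99 or more. PEX4 averaged 3531 in the wild-type, 3133 in *oxt6* and 887 in the complemented plants. It was picked for its r with AT5G18600, so a like low level in lines 5 and 6 follows from that choice. Of all probe sets tested, 35.5% had every complemented array below every wild-type array.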

How the data were processed

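Leaf RNA was labelled and hybridized to 10 Affymetrix ATH1 arrays. Per the labels and methods, ArrayAssist with PLIER was used by the authors on the scans (versions not given in the sources used here). The deposited values are linear intensities, none under a floor of 16. Of the 22810 probe sets, 64 controls were left out. Genes were named through the platform annotation for 13436 probe sets and through the study's tables for 505 more, with symbols from RefSeq TAIR10.1, and 503 probe sets with several genes were not named. No build is named with the values, so no coordinates are given. Listed genes were read by their brightest probe set.

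Each value was taken as log2(intensity + 1). The 12453 probe sets with the highest mean, as many as the study's filtered set holds, were fitted in limma 3.58.1 (R 4.3.3) with 1 mean per group and a trended variance, with Benjamini-Hochberg adjustment over all of them and a threshold of 0.05. The fit less GRXC1 holds 12452. For the 3'/5' signal, the log2 difference between 3' and 5' probe sets was averaged over the actin, GAPDH and ubiquitin controls. The script was tested on simulated data.

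The members, gene lists and tests were chosen with earlier results of these data known. The comparisons of line 5 with line 6 and with AT4G15660 were added after the values were seen. Genes outside the 5 were named by a rule: the other CPYC genes, GRX480, AT4G15700, the 3 largest called changes per comparison among the other CC-type and CGFS genes, the 2 largest per other list, and the 3 genes with the highest r for each member. GRXS13 and ARR15 against the wild-type, AT4G15680, GRX4 and GRXS17 were named after their values were seen. So were the spreads and replicate values of the other CC-type and CPYC genes in *oxt6*. Alternatives were 2 scalings, fits without a filter or with the 8000 brightest probe sets, adding 16 in place of 1, leaving the third group out of the fit, a replicate block, each line with its own mean or alone, array weights, the 3'/5' signal as a covariate, the methods' t-test, an adjusted p under 0.01 and leaving out each array. Plots were made in matplotlib 3.10.9 (Python 3.11.15).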

Additional observations from a re-analysis of the deposited data

Results flagged for a closer look

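The 2 complemented lines differed in AT5G18600. The rise of *oxt6* was 1.17 (log2, limma adjusted p = 0.00274) larger against line 6 than against line 5, with line 5 at 293.1 and 351.5 and line 6 at 149.7 and 134.6. The difference rests on 2 arrays a line, and the cause was not tested. In none of the 17 glutaredoxins tested did 1 complemented array stand apart from the other 3 by Dixon's criterion.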

How the results depend on the processing

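The 3 genes called against the wild-type and the 5 called against the complemented plants remained 3 and 5 in number when each array was left out in turn, and the 2 called between complemented and wild-type plants ran from 2 to 3. Array weights raised the last number to 4, with GRXC1 (-0.44) and AT4G15660 (-0.35) called lower. The 3'/5' signal as a covariate lowered the number against the complemented plants to 3. It also turned the excess of AT4G15690 over GRXC1 there to -0.025 and the uncalled change of AT4G15660 between complemented and wild-type plants to 0.50. Array weights turned AT4G15660 less GRXC1 between those groups to 0.26. Quantile normalization ended the call of AT4G15690 less GRXC1 against the wild-type (-0.72) and gave calls for AT4G15660 (0.69) and AT3G62950 (0.65). An uncalled GRXC1 passed between complemented and wild-type plants with quantile normalization (-0.54) and without wild-type replicate 3 (-0.46), AT4G15660 with a common median (-0.44), and AT3G62950 without *oxt6* replicate 1 (0.42). The excess of AT5G18600 over GRXC1 against the complemented plants ended without line 6 replicate 1 (0.67) or 2 (0.67). AT4G15660 less GRXC1 gained a call against the wild-type (0.84) and against the complemented plants (0.58) with array weights, as did AT3G62950 against the wild-type (0.47), and AT4G15690 less GRXC1 lost its call against the wild-type with the 8000 brightest probe sets (adjusted p = 0.0601). The log2 SD of GRXC1 in *oxt6* was 0.064 with a common median. Over all alternatives, 583 values of the 5 genes and of their differences from GRXC1 stayed on their side of the threshold. Of the rest, 18 lost a call, 18 gained one and 2 were counted as turned. That last count leaves out some changes of sign, such as that of AT4G15660 between complemented and wild-type plants (0.50). AT4G15660 less GRXC1 against the complemented plants also reached -0.15 without being in it.

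The share of all probe sets called against the wild-type, 28.7%, was 57% with array weights, 14.5% without a filter, 16.9% at an adjusted p under 0.01, and 12.1% after Benjamini-Hochberg adjustment and 15.5% at an unadjusted p under 0.01 with the methods' t-test. Between complemented and wild-type plants 33% in place of 71.8% were called with the 3'/5' signal.

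Same-numbered wild-type and *oxt6* arrays did not deviate together (r = 0.10, -0.21 and 0.13), so no sign of pairing by replicate number was seen. So few arrays cannot exclude such a pairing. A replicate block gave 3, 5 and 2 genes called and changed no other call of the 5 genes or of their differences from GRXC1 than AT5G18600 less GRXC1 against the complemented plants (0.76, adjusted p = 0.0650). The number of arrays, the floor for AT4G15690 in line 6 and dim probe sets of 8 CC-type genes limit what could be compared. The cause was not tested for any of these shifts.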
